A study of Mus musculus with 4 samples.

Results

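The genes described here are 9 that carry cytokine signals in blood progenitors: the receptors Kit, Epor and Csf2rb, the kinase Jak2, the transcription factors Stat3, Stat5a and Stat5b, and the feedback inhibitors Socs3 and Cish. They were found by their gene names in the scanner files of the study's arrays, where they had 12 probes of 39418, among 31703 genes or probe names in all. The study used 1 one-colour Agilent array for each of 4 groups of mouse erythrocyte/megakaryocyte progenitors (MEP, the precursors of red cells and of platelet-forming megakaryocytes), all on a C57BL/6 background. The groups were MEP from E14.5 fetal liver labelled Ezh2-null (Ezh2-/-), MEP from E14.5 fetal liver labelled wild type, MEP from adult bone marrow labelled Ezh2-null, and MEP from adult bone marrow labelled wild type. Ezh2 is the histone methyltransferase of Polycomb repressive complex 2, which places a repressive methyl mark on histone H3. The method of cell isolation, the number and sex of the animals behind each RNA sample and the deleted part of Ezh2 are not given in the sources used here.

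Kit is the receptor tyrosine kinase for stem cell factor and maintains early erythroid, megakaryocyte and mast cell progenitors. Epor is the receptor for erythropoietin, and Csf2rb is the signalling chain that the receptors for IL-3, IL-5 and GM-CSF share. Epor and Csf2rb have no kinase activity of their own: Jak2 is bound to them, is activated when ligand binds, and phosphorylates STAT proteins, which then enter the nucleus and activate target genes. Stat5a and Stat5b are the main STATs downstream of erythropoietin, Stat3 is best known downstream of IL-6 family cytokines, and Socs3 and Cish are target genes whose products damp the same receptors.

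With 1 array per group, differences between arrays have no replicate check and carry no p-value. The number of arrays limits the precision. The error given with a level is the SD of the Feature Extraction error model, which covers noise within 1 array and leaves out differences between animals. Levels are processed intensities scaled to a common 75th percentile, in arbitrary units, and levels of different probes are not comparable. A difference of at least 2-fold is counted below, and a fold against an array on which a probe was not well above background is a bound, computed against the lowest signal that was well above background on that array (12.6 in fetal liver labelled Ezh2-null, 19.3 in fetal liver labelled wild type, 9.79 in bone marrow labelled Ezh2-null and 11.1 in bone marrow labelled wild type).

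The Ezh2 probe, which starts at base 2558 of the transcript, went against the labels. It had 194 ± 19.6 in fetal liver labelled Ezh2-null, against 33.5 ± 5.26 in fetal liver labelled wild type, and 70.0 ± 7.29 in bone marrow labelled Ezh2-null, against 35.4 ± 4.23 in bone marrow labelled wild type. A probe outside the deleted part checks nothing, and whether this one lies inside it is not given, so every genotype direction here rests on the labels alone. The erythroid and megakaryocyte transcription factors Gata1, Klf1, Tal1, Zfpm1, Gfi1b, Nfe2 and Lmo2 were well above background on all 4 arrays. Fli1 and, by their brightest probes, 7 of 7 stem and multipotent progenitor markers were not well above background on any. The other probe of Cd34 was well above background on at least 1 fetal liver array. Gata2 was well above background on 3 arrays. It had 50.6 in fetal liver labelled Ezh2-null, 119 in bone marrow labelled Ezh2-null and 262 in bone marrow labelled wild type. In fetal liver labelled wild type Gata2 had 4.16, not well above background. In bone marrow labelled Ezh2-null Klf1 was 3.17-fold higher and Gata2 2.21-fold lower than in bone marrow labelled wild type. Between 39.0% and 46.4% of probes were well above background per array. Other lineages' markers moved with the groups. The summed level of late erythroid markers was 9260 in fetal liver labelled Ezh2-null, against 43900 in fetal liver labelled wild type, and 10100 in bone marrow labelled Ezh2-null, against 3850 in bone marrow labelled wild type. The summed level of lymphoid markers was 3890 in bone marrow labelled Ezh2-null, against 212 in bone marrow labelled wild type. Since levels of different probes are not comparable, such a sum follows its brightest probes and does not measure the content of a lineage. Hba-a1 had 32900 and Ahsp 8810 in fetal liver labelled wild type, and Vpreb1 had 2200 and Dntt 1380 in bone marrow labelled Ezh2-null.

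The probes that carry the largest differences, and the pair of Stat5b probes that disagree, are shown here by their first 30 of 60 bases, 5′ to 3′, as the files give them, with positions on mouse build mm9. No base is capitalised, since no part of a probe stands out. The annotation of mm9 was not used here, so exon or untranslated region is not stated, and the base in the transcript at which each probe starts is the one the files give.
Kit, chr5:76052394-76052453, plus strand, from base 4828: gtcaggtacttaaggggccacaccattgag
Epor, chr9:21763422-21763481, minus strand, from base 1690: gaacgggattggtgaagccatacttaaagt
Jak2, chr19:29387487-29387546, plus strand, from base 4946: cgtgctgctccctcttagacaatgtcatgt
Stat5b, chr11:100642045-100642104, minus strand, from base 5195: tgaggcagccacaaaattgtgtattttatg
Stat5b, chr11:100642187-100642246, minus strand, from base 5053: gtggaaggagatttgaagtggctatctcct
G and C make up 38.3% of the Kit probe, 51.7% of the Epor probe and 35.0% of the Jak2 probe, and 38.3% and 35.0% of the Stat5b probes that start at bases 5195 and 5053.

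Kit was high on 3 arrays and low on 1. Its level was 362 ± 36.3 in fetal liver labelled Ezh2-null, against 96.0 ± 10.4 in fetal liver labelled wild type, and 290 ± 29.1 in bone marrow labelled Ezh2-null, against 414 ± 41.4 in bone marrow labelled wild type. The 3 higher levels lay within 2 error-model SDs of their neighbours in the order of levels, and fetal liver labelled wild type lay apart from them by 1.59 on the log2 scale. Kit was 3.77-fold higher in fetal liver labelled Ezh2-null than in fetal liver labelled wild type, a log2 difference of 1.92 ± 0.213. In bone marrow the log2 difference between the genotypes was -0.51 ± 0.204, a fold of 1.43 the other way. RNA of a whole cell sample was hybridised, so fewer cells of a type and less RNA per cell cannot be told apart for this or any later gene.

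Epor showed the opposite order in fetal liver. Its level was 706 ± 70.7 in fetal liver labelled Ezh2-null, against 1660 ± 166 in fetal liver labelled wild type, and 991 ± 99.2 in bone marrow labelled Ezh2-null, against 783 ± 78.3 in bone marrow labelled wild type. Fetal liver labelled wild type was the highest, and the other 3 arrays lay within 2 error-model SDs of their neighbours. Epor was 2.34-fold lower in fetal liver labelled Ezh2-null than in fetal liver labelled wild type, a log2 difference of -1.23 ± 0.204, and was 1.27-fold higher in bone marrow labelled Ezh2-null than in bone marrow labelled wild type. With each array scaled on its spike-in spots, the fetal liver difference was -0.76 on the log2 scale, under 2-fold.

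Csf2rb had 2 probes, of which only the one at chr15:78179504-78179563, from base 2837, was bright. This probe had 145 ± 14.8 in fetal liver labelled Ezh2-null, against 227 ± 23.1 in fetal liver labelled wild type, and 101 ± 10.3 in bone marrow labelled Ezh2-null, against 101 ± 10.4 in bone marrow labelled wild type. Both bone marrow arrays were below both fetal liver arrays, an order that turned with spike-in scaling, and the bone marrow arrays did not differ beyond the error. The genotype difference was -0.65 ± 0.207 in fetal liver and -0.01 ± 0.209 in bone marrow on the log2 scale. The second probe, from base 4501, lay between 7.12 and 16.7 and was not well above background on any array. Mice carry a close copy of the gene, Csf2rb2, whose 2 probes were not well above background on any array, and whether the bright Csf2rb probe also takes up Csf2rb2 RNA was not tested.

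**Figure D1:**
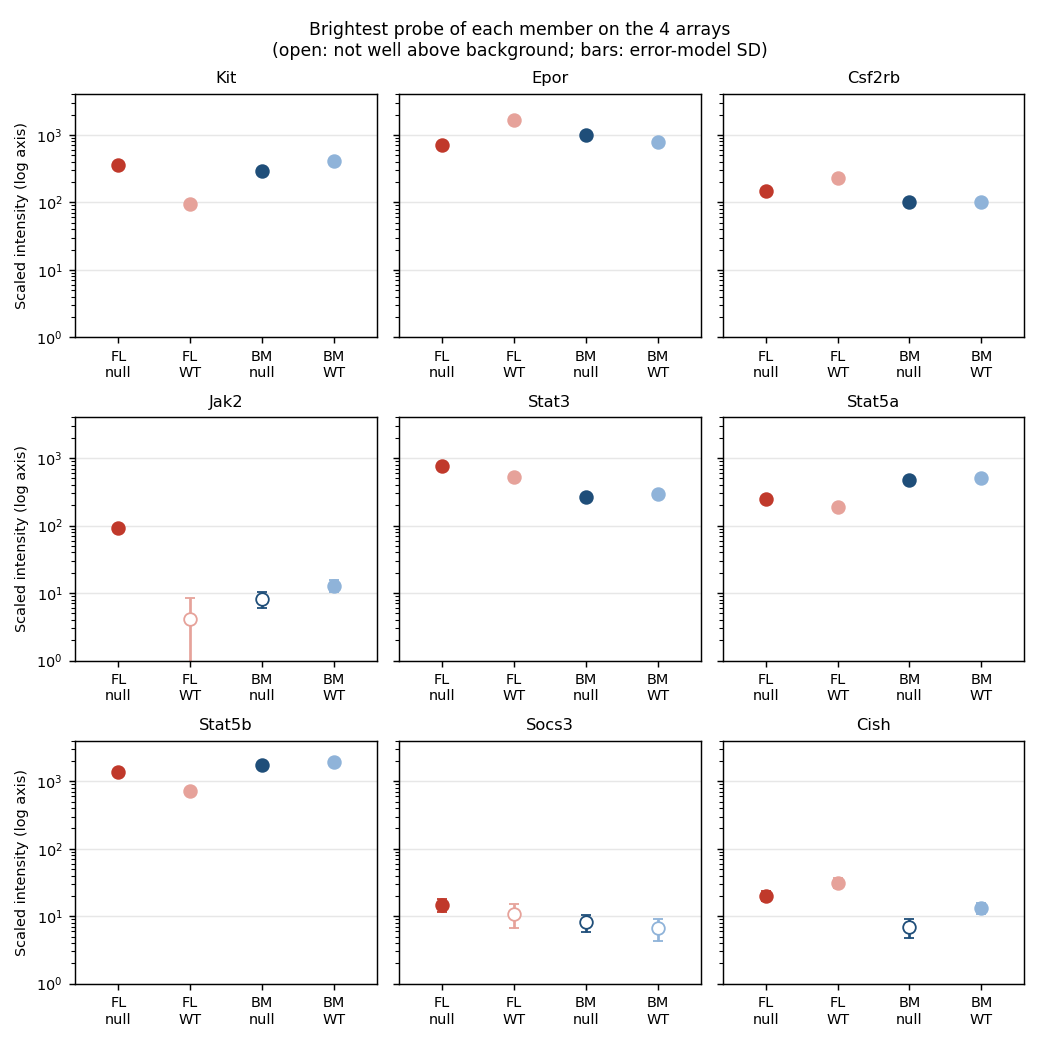
Scaled intensity (log axis, arbitrary units) of the brightest probe of each of the 9 genes in MEP from fetal liver (FL) and adult bone marrow (BM) labelled Ezh2-null (null) and wild type (WT), 1 array each. Bars are the error-model SD, and open points were not well above background. Kit is low in FL WT at 96.0, Epor is highest there at 1660, and Jak2 is above 20 only in FL null, at 92.6.

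Il3ra, the IL-3 binding chain that pairs with Csf2rb, had 73.7 in fetal liver labelled Ezh2-null, against 150 in fetal liver labelled wild type, and 32.8 in bone marrow labelled Ezh2-null, against 32.7 in bone marrow labelled wild type. Il3ra was 2.04-fold lower in fetal liver labelled Ezh2-null than in fetal liver labelled wild type, and like the bright Csf2rb probe it was level between the bone marrow arrays.

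Jak2 was bright on 1 array. Its level was 92.6 ± 9.66 in fetal liver labelled Ezh2-null, against 4.18 ± 4.18, not well above background, in fetal liver labelled wild type. It had 8.29 ± 2.23, not well above background, in bone marrow labelled Ezh2-null, against 12.9 ± 2.65 in bone marrow labelled wild type. Jak2 was at least 4.80-fold higher in fetal liver labelled Ezh2-null than in fetal liver labelled wild type. In bone marrow the bound was 1.32-fold lower on the array labelled Ezh2-null than on the array labelled wild type. On the log2 scale that bound was -0.40 ± 0.296, within 2 error-model SDs of 0. With normexp background correction and an offset of 50, which draws dim signals together, the fetal liver difference was 0.60 on the log2 scale. With every probe at its measured signal it was 4.47. Jak1, the kinase that pairs with many other cytokine receptors, had 71.6 in fetal liver labelled Ezh2-null, against 33.2 in fetal liver labelled wild type, 2.16-fold higher. In bone marrow Jak1 had 12.4 on the array labelled Ezh2-null and 5.65, not well above background, on the array labelled wild type.

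The 3 STAT genes were well above background on all 4 arrays. Stat3 was measured by 10 spots of 1 probe (chr11:100749598-100749657, from base 2953), whose log2 SD between spots was 0.0586 or less. Its level was 752 ± 75.2 in fetal liver labelled Ezh2-null, against 529 ± 53.0 in fetal liver labelled wild type, and 261 ± 26.1 in bone marrow labelled Ezh2-null, against 297 ± 29.8 in bone marrow labelled wild type. Both bone marrow arrays were below both fetal liver arrays, except that with spike-in scaling Stat3 was higher in bone marrow between the arrays labelled wild type, by 0.51 on the log2 scale. The genotype difference was 0.51 ± 0.204 in fetal liver, and -0.19 ± 0.205 in bone marrow, on the log2 scale. A second Stat3 probe, from base 1428, was well above background only in bone marrow labelled Ezh2-null, at 11.4.

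Stat5a (chr11:100746373-100746432, from base 3777) had 249 ± 25.0 in fetal liver labelled Ezh2-null, against 189 ± 19.5 in fetal liver labelled wild type, and 479 ± 48.0 in bone marrow labelled Ezh2-null, against 504 ± 50.4 in bone marrow labelled wild type. Both bone marrow arrays were above both fetal liver arrays, and within each source the genotypes lay within 2 error-model SDs. The brighter Stat5b probe, from base 5195, had 1370 ± 137 in fetal liver labelled Ezh2-null, against 711 ± 71.2 in fetal liver labelled wild type, and 1720 ± 172 in bone marrow labelled Ezh2-null, against 1920 ± 192 in bone marrow labelled wild type. By this probe Stat5b was 1.93-fold higher in fetal liver labelled Ezh2-null than in fetal liver labelled wild type, just under the 2-fold mark, and differed by 1.12-fold in bone marrow. The fetal liver difference of this probe passed 2-fold with quantile normalization (1.08 on the log2 scale) and spike-in scaling (1.41).

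The second Stat5b probe starts 142 bases upstream of the first and gave the opposite direction in fetal liver. It had 28.7 ± 3.93 in fetal liver labelled Ezh2-null, against 64.6 ± 7.53 in fetal liver labelled wild type, and 183 ± 18.4 in bone marrow labelled Ezh2-null, against 160 ± 16.1 in bone marrow labelled wild type. By this probe Stat5b was 2.25-fold lower in fetal liver labelled Ezh2-null than in fetal liver labelled wild type. Both probes were higher in bone marrow than in fetal liver in both genotypes. No direction of Stat5b between genotypes in fetal liver can be given from these probes, and averaging them gave a log2 difference of -0.11.

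**Figure D2:**
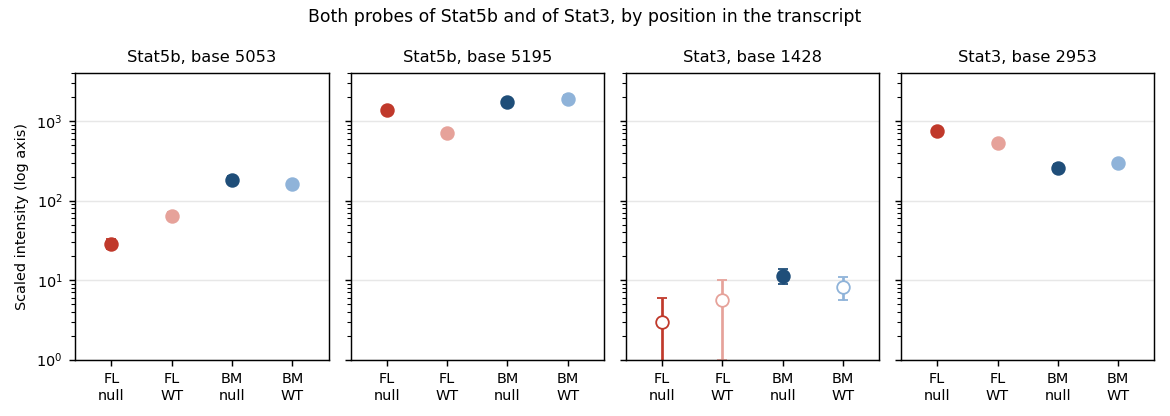
Scaled intensity (log axis, arbitrary units) of both probes of Stat5b and of Stat3 on the arrays of fetal liver (FL) and bone marrow (BM) MEP labelled Ezh2-null (null) and wild type (WT), titled by the base of the transcript at which each probe starts. Bars are the error-model SD, and open points were not well above background. The Stat5b probes go opposite ways in fetal liver: from base 5053 the level is 28.7 in FL null and 64.6 in FL WT, and from base 5195 it is 1370 in FL null and 711 in FL WT. Both are higher in BM.

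The feedback inhibitors were dim. Socs3 (chr11:117827480-117827539) had 14.8 ± 3.19 in fetal liver labelled Ezh2-null, the only array on which it was well above background, and between 6.68 and 10.9 on the other 3. Since 14.8 lies under the lowest signal well above background in fetal liver labelled wild type, no fold is given. Cish (chr9:107204196-107204255) had 20.2 ± 3.35 in fetal liver labelled Ezh2-null, against 31.2 ± 5.14 in fetal liver labelled wild type. In bone marrow Cish had 6.93 ± 2.16 on the array labelled Ezh2-null, not well above background, against 13.3 ± 2.64 on the array labelled wild type. The fetal liver difference of Cish was -0.63 ± 0.338 on the log2 scale, within 2 error-model SDs of 0. In bone marrow the bound for Cish was 1.36-fold lower on the array labelled Ezh2-null. That bound, -0.44 ± 0.286 on the log2 scale, also lay within 2 error-model SDs of 0.

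The promoters of these inhibitors are shown because STAT3 is known to act on Socs3 and STAT5 on Cish. The motif searched was TTCNNNGAA, which reads the same on both strands. Windows of 300 bases (250 before and 50 after the start) were taken from RefSeq, build GRCm38.p6, which held windows for 8 of the 9 genes, all but Csf2rb. The motif was in windows of 2 of these 8 genes, Socs3 and Cish, against 9.55% of 27025 genes and 8.3% of all 32851 windows. Cish had 2 matches, as did 0.457% of windows counting those with 2 or more. Each stretch is on the gene's own strand, with matches in capitals. A match is a description of letters and not a site shown to be bound.
Socs3, chr11:117969461-117969580, minus strand, match starting at -154: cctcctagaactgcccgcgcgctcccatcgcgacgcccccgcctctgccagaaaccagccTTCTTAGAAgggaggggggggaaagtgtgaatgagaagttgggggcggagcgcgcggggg
Cish, chr9:107296599-107296678, plus strand, matches starting at 1 and 12: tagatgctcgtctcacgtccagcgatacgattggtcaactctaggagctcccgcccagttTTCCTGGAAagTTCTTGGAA

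Between the fetal liver arrays, 3 of the 9 genes differed by at least 2-fold. Kit and Jak2 were higher, and Epor lower, in fetal liver labelled Ezh2-null. Over all genes, 28.9% of the 16257 compared differed by at least 2-fold, 15.4% higher and 13.5% lower, so 3 of 9 is near the share among all genes. The median log2 difference was 0.39 over the 9 genes and -0.14 over all genes. Of all genes past 2-fold, 53.3% were higher in fetal liver labelled Ezh2-null, compared with 82.8% with spike-in scaling and 41.4% with the 75th percentile over all probes. Spike-in scaling moved the median of all genes to 0.24. Kit kept its direction and stayed past 2-fold under 10 of 10 alternatives, with log2 differences between 1.18 and 2.38. Jak2 stayed past 2-fold under 8 of 9, all but normexp, and Epor under 9 of 10, all but spike-in scaling. Some alternatives could not change these values. Kit and Epor have 1 probe each, well above background on all 4 arrays. Both filters on dim probes, averaged probes and the probe nearest the 3′ end therefore return the same difference for them. For Jak2, also with 1 probe, the last 2 do so. The series table repeats the same intensities, rounded.

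In the fetal liver comparison, differences also moved with the position of the probe in its transcript. The 10% of genes with the lowest start positions (1 to 308) had a median of -0.49 and the 10% with the highest (3778 to 17977) a median of 0.22. The Kit, Jak2 and brighter Stat5b probes start at bases 4828, 4946 and 5195. With the trend on position removed, an alternative added after seeing the data, the log2 difference was 1.41 for Kit, 1.75 for Jak2, 0.42 for Stat5b and -1.37 for Epor. In bone marrow the lowest and highest 10% had medians of -0.01 and -0.07. Late erythroid markers moved in the same fetal liver comparison: 4 of the 5 measured were at least 2-fold lower on the array labelled Ezh2-null, among them the globin Hba-a1 (6570 in fetal liver labelled Ezh2-null, against 32900 in fetal liver labelled wild type), while Epb42 was not well above background on any array. Of 4 measured hepatocyte markers, 3 were lower, with a summed level of 154 in fetal liver labelled Ezh2-null, against 663 in fetal liver labelled wild type, and Alb, Afp, Ttr and Fgb were not well above background on any array. Mast cells also carry Kit. Of the mast cell, basophil and eosinophil list only Prg2, Epx and Tpsb2 were measured, and none of these 3 differed by 2-fold. The summed level of the list was 162 in fetal liver labelled Ezh2-null, against 174 in fetal liver labelled wild type. Cpa3, Mcpt8, Fcer1a, Ms4a2 and Mcpt4 were not well above background on any array, so the list cannot be read for mast cells alone. Among the 8 erythroid and megakaryocyte transcription factors compared, Gata2 was at least 2.62-fold higher in fetal liver labelled Ezh2-null, and 0 were lower by 2-fold. The part of these markers in the Kit, Jak2 and Epor differences was not tested.

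**Figure D3:**
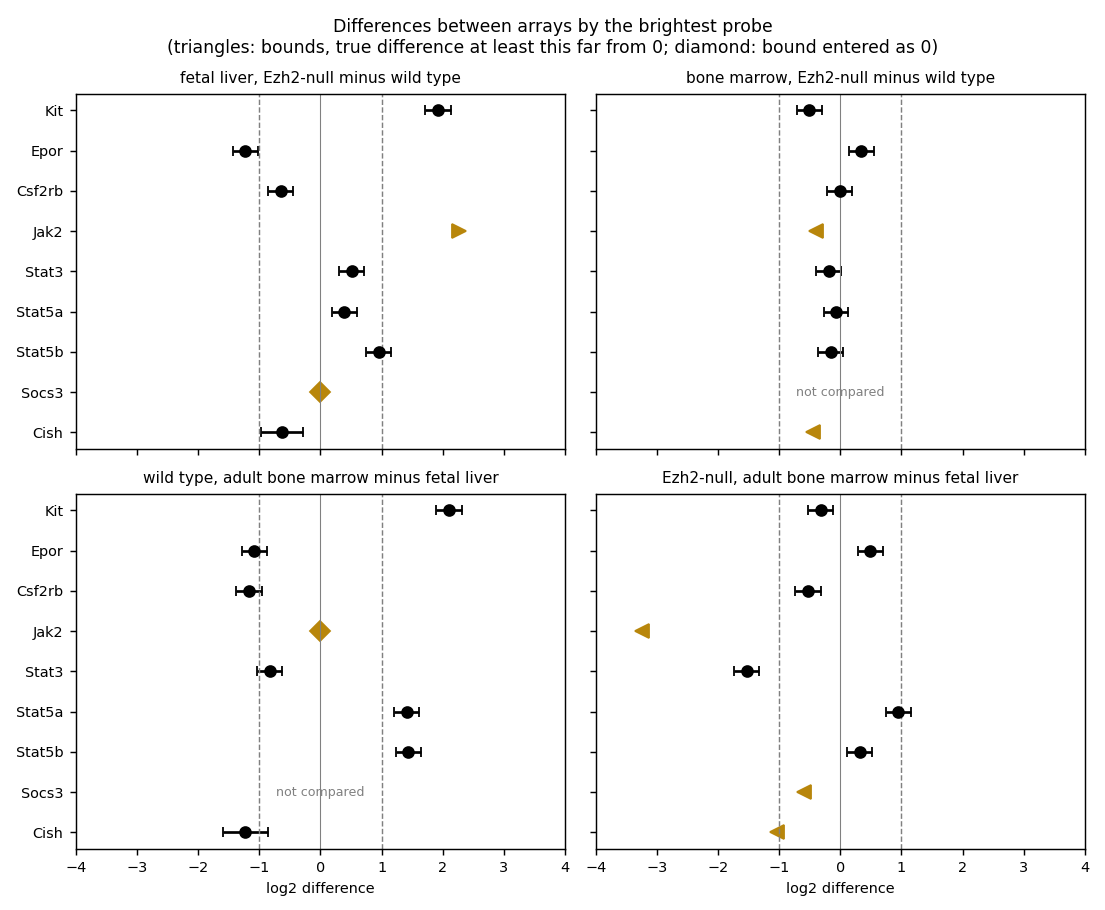
Log2 differences of the 9 genes (brightest probe) in the 4 comparisons between single arrays, with bars for the error-model SD and dashed lines at 2-fold. Triangles are bounds, and diamonds are bounds entered as 0. In fetal liver Kit (1.92) and Jak2 (at least 2.26) lie right of the 2-fold line and Epor (-1.23) left of it. In bone marrow all 8 genes compared lie between the lines, Jak2 and Cish as bounds.

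Between the bone marrow arrays, 0 of 8 genes compared were counted at 2-fold, with Socs3 not compared, against 12.3% of all 15279 genes (4.54% higher and 7.74% lower). Jak2 and Cish entered as bounds, at least 1.32-fold and 1.36-fold lower on the array labelled Ezh2-null. At 12.9 and 13.3 on the array labelled wild type, set against 9.79, these bounds could not reach 2-fold, so a larger difference of either gene would not be counted. With detection required on both arrays, 0 of 6 genes were past 2-fold. The 8 log2 differences ran between Kit at -0.51 and Epor at 0.34, with a median of -0.18 over the 8 genes and -0.03 over all genes. Of all genes past 2-fold, 37.0% were higher in bone marrow labelled Ezh2-null, and 45.9% with the all-probe percentile. None of the 8 reached 2-fold under any alternative run. Within this comparison 6 of 7 measured lymphoid markers and 4 of 5 late erythroid markers were higher by 2-fold or more in cells labelled Ezh2-null. Of 6 megakaryocyte markers compared, 3 were higher and 1 lower by 2-fold or more.

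Since Kit and Epor stood apart in fetal liver and not in bone marrow, the difference between the 2 genotype differences was computed for each gene, with signals under 19.3 raised to it. It reached 4-fold for 2 of 8 genes, against 10.3% of 16250 genes (7.63% in the positive direction). Kit had 2.43 on the log2 scale and Jak2 had 2.26. With normexp 0 genes reached 4-fold, and with detection required on every array Kit alone did. Epor had -1.57, Stat5b 1.11, Stat3 0.70, Csf2rb -0.64, Cish -0.63 and Stat5a 0.46. These values rest on 4 single arrays, and the difference was not tested. For Jak2 and Cish both bone marrow signals lay under 19.3, so their values hold the fetal liver difference alone.

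Adult bone marrow was then set against fetal liver within each genotype. Between the arrays labelled wild type, 6 of 8 genes compared differed by at least 2-fold, against 45.0% of 15382 genes (13.1% higher and 31.9% lower in bone marrow). Kit was 4.31-fold higher in bone marrow labelled wild type than in fetal liver labelled wild type, Stat5b 2.71-fold and Stat5a 2.66-fold. These 3 stayed past 2-fold under all 10 alternatives. For Kit and Stat5a, with 1 probe each, the filters on dim probes and the choice or averaging of probes could not change the difference. Epor was 2.11-fold, Csf2rb 2.24-fold and Cish 2.35-fold lower in bone marrow labelled wild type than in fetal liver labelled wild type, but with spike-in scaling their log2 differences turned to 0.26, 0.17 and 0.11. The median of all genes was -0.58 as reported and 0.73 with spike-in scaling, and the share of called genes that were higher in bone marrow was 29.1% as reported, 94.9% with spike-in scaling and 54.9% with the all-probe percentile. Against those medians the 3 genes lay below the middle of all genes under both scalings. In the same comparison 5 of 5 measured late erythroid markers, 4 of 4 hepatocyte markers and 3 of 5 lymphoid markers were at least 2-fold lower in bone marrow, and 1 lymphoid marker was higher. The median log2 difference was -3.55 for the late erythroid and -2.89 for the hepatocyte markers, and their part in the differences of Kit, Epor and the other genes was not tested.

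Between the arrays labelled Ezh2-null, 3 of 9 genes differed by at least 2-fold, all lower in bone marrow, against 37.6% of 16688 genes (10.5% higher and 27.1% lower). With spike-in scaling 3 were higher and 1 lower, and with the all-probe percentile 2 were higher and 1 lower. Jak2 was at least 9.46-fold, Stat3 2.88-fold and Cish at least 2.06-fold lower in bone marrow than in fetal liver. Jak2 stayed past 2-fold under all 9 alternatives. Cish fell short of 2-fold under 4 of 9, with log2 differences of -0.71 with normexp, -0.24 with quantile normalization, -0.41 with the all-probe percentile and -0.14 with spike-in scaling. The Stat3 difference was -1.53 on the log2 scale, was -0.63 with spike-in scaling, and turned to 0.19 when both probes were averaged, 1 of which was above background on a single array. Stat5a was 1.93-fold higher in bone marrow labelled Ezh2-null than in fetal liver labelled Ezh2-null, while Kit differed by 1.25-fold between these arrays. The share of called genes that were higher in bone marrow was 27.9% as reported and 75.1% with spike-in scaling, and 64.2% with the all-probe percentile. The 2 source comparisons share no array, but each shares 1 array with each genotype comparison.

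A model with terms for genotype and source over all 4 arrays (limma, 1 residual degree of freedom, Benjamini-Hochberg adjustment over 16250 genes) called 0 of 8 genes for genotype and 0 of 8 for source at an adjusted p under 0.05. It called 0.0% of all genes for either term, and at an unadjusted p under 0.05 it held 1.71% for genotype and 16.3% for source. Socs3 was not in the fit because no signal exceeded 19.3. At the unadjusted threshold 0 of the 8 genes passed for genotype and 2 passed for source. Stat3 was lower in bone marrow by a log2 difference of -1.18 (95% interval -2.29 to -0.07, limma adjusted p = 0.298) in 2 of 2 genotypes, and Stat5a was higher by 1.18 (0.11 to 2.24, limma adjusted p = 0.295) in 2 of 2. The genotype interval was -1.03 to 2.43 for Kit, -1.81 to 0.92 for Epor and -0.52 to 2.78 for Jak2, each with a limma adjusted p of 0.995. The residual of this model is the disagreement between the sources in the genotype difference, so genes that differ in 1 source only have wide intervals.

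**Figure D4:**
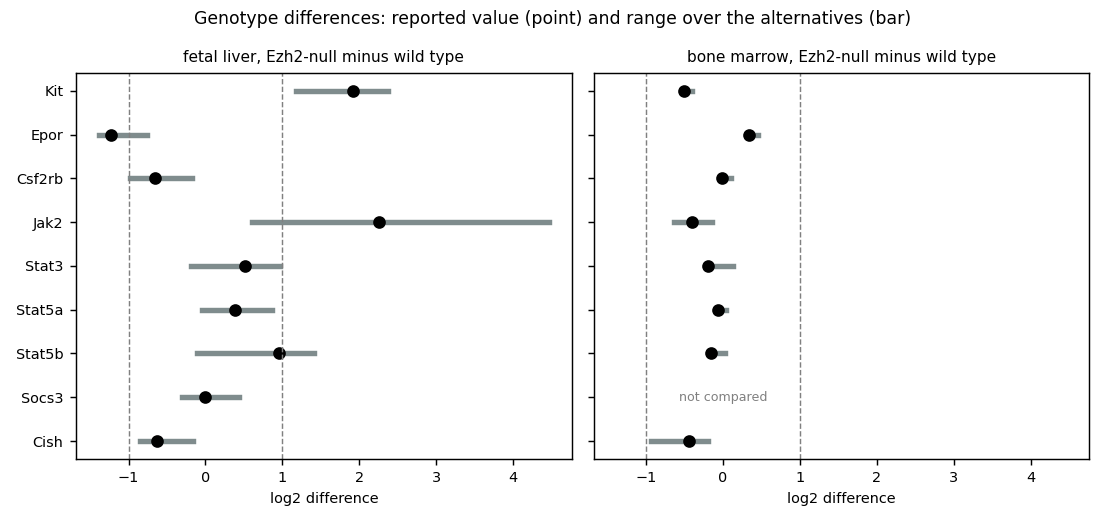
Log2 genotype differences of the 9 genes as reported (points) and their range over the alternatives (bars), with dashed lines at 2-fold. In fetal liver the bar of Kit (1.18 to 2.38) stays past 2-fold, the bars of Stat3, Stat5a, Stat5b and Socs3 cross 0, and in bone marrow no bar reaches 2-fold.

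The other genes of the pathway were read from lists of 106 genes, grouped by role, which were chosen with earlier results of these arrays known. Between the fetal liver arrays 15 of 62 genes compared (24.2%) were past 2-fold upward in cells labelled Ezh2-null and 5 (8.06%) downward, with a median of 0.16, against 15.4% higher, 13.5% lower and a median of -0.14 over all genes. Between the bone marrow arrays 9 of 64 were higher (14.1%) and 8 lower (12.5%), with a median of -0.06, against 4.54% higher, 7.74% lower and a median of -0.03 over all genes. All of the lists' genes are on the array, and those not compared were not well above background on either array of the pair. Folds of the lists' genes are given without removal of the trend on probe position described above. Of the genes named below as higher in fetal liver labelled Ezh2-null, some had brightest probes within the highest 10% of start positions. Those of Ptpn2, Socs7, Ptpn11, Pik3cd, Il1rl1 and Jak1 start at bases 8312, 6921, 5508, 5022, 4998 and 4724. Those of Stat6, Myc, Pias2 and Ccnd2 start lower, at bases 3450, 1899, 1788 and 609.

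Most of the 12 ligands were not well above background on any array, and 0 of 2 compared differed by 2-fold in fetal liver. Of 3 compared in bone marrow, Il7 was at least 2.12-fold lower on the array labelled Ezh2-null. Among 31 other receptors, 2 of 18 were higher and 2 lower in fetal liver labelled Ezh2-null, and 5 of 20 were higher and 2 lower in bone marrow labelled Ezh2-null. The shares over all genes were 15.4% higher and 13.5% lower in fetal liver, and 4.54% higher and 7.74% lower in bone marrow. Ifnar2, a chain of the type I interferon receptor, had 36.2 in fetal liver labelled Ezh2-null, against 147 in fetal liver labelled wild type, 4.06-fold lower. Il21r, the IL-21 receptor, was well above background only in bone marrow labelled Ezh2-null, at 76.3, at least 6.86-fold higher than in bone marrow labelled wild type. The lymphoid markers given above were higher on the same array, and their part in the Il21r level was not tested. Il1rl1, the IL-33 receptor, had 130 in fetal liver labelled Ezh2-null and 96.1 in bone marrow labelled wild type by 1 probe and was not well above background on the other arrays, nor by its other 2 probes on any array.

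Of 7 other JAKs and STATs, 2 of 3 compared were higher in fetal liver labelled Ezh2-null (Jak1 and Stat6) and 0 lower, beside 15.4% higher and 13.5% lower over all genes. Stat6, which IL-4 activates, had 64.8 in fetal liver labelled Ezh2-null, against 29.6 in fetal liver labelled wild type. In bone marrow, where 4.54% of all genes were higher and 7.74% lower, 0 of 5 were higher and 1 was lower: Stat2, a mediator of type I interferon signals, had 18.4 on the array labelled Ezh2-null, against 63.1 on the array labelled wild type.

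The SOCS family and other negative regulators held 5 of 16 genes higher and 2 lower in fetal liver labelled Ezh2-null, with a median of 0.29, and 2 of 11 higher and 1 lower in bone marrow labelled Ezh2-null. Over all genes 15.4% were higher and 13.5% lower in fetal liver, with a median of -0.14, and 4.54% were higher and 7.74% lower in bone marrow. Ptpn2, a phosphatase that acts on JAKs and STATs, had 553 in fetal liver labelled Ezh2-null, against 118 in fetal liver labelled wild type, 4.68-fold higher by 1 of its 3 probes, and the other 2 were not well above background on any array. Socs7 had 1210 in fetal liver labelled Ezh2-null, against 395 in fetal liver labelled wild type, 3.06-fold higher. Pias2, an inhibitor of activated STATs, was 2.14-fold higher in fetal liver labelled Ezh2-null than in fetal liver labelled wild type, and 2.90-fold lower in bone marrow labelled Ezh2-null than in bone marrow labelled wild type.

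Adaptors and kinases downstream of the receptors were higher in 3 of 11 and lower in 1 of 11 in fetal liver labelled Ezh2-null, with 1 of 13 each way in bone marrow, beside 15.4% higher and 13.5% lower over all genes in fetal liver and 4.54% and 7.74% in bone marrow. Ptpn11, the phosphatase SHP2 that carries Kit signals to the Ras pathway, had 670 in fetal liver labelled Ezh2-null, against 212 in fetal liver labelled wild type, 3.17-fold higher, and 514 in bone marrow labelled Ezh2-null, against 522 in bone marrow labelled wild type. Pik3cd, a catalytic subunit of PI3 kinase, was 2.97-fold higher in fetal liver labelled Ezh2-null by its brightest probe, while another of its probes was 1.52-fold lower. Btk, a kinase of B cell and myeloid signalling, was 5.58-fold lower there by its brightest probe, while its other probe was at least 2.38-fold higher.

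Genes reported as STAT5 or STAT3 targets were higher in 3 of 12 and lower in 0 of 12 in fetal liver labelled Ezh2-null, with a median of 0.45, and higher in 1 and lower in 2 of 12 in bone marrow labelled Ezh2-null. All genes compared had 15.4% higher, 13.5% lower and a median of -0.14 in fetal liver, and 4.54% higher, 7.74% lower and a median of -0.03 in bone marrow, and with 12 genes nothing particular to these targets can be read from the counts. Ccnd2, the cell cycle regulator cyclin D2, had 181 in fetal liver labelled Ezh2-null, against 30.3 in fetal liver labelled wild type, 5.96-fold higher. Myc, a growth-promoting transcription factor, had 407 in fetal liver labelled Ezh2-null, against 102 in fetal liver labelled wild type, 4.01-fold higher. Fos, an immediate early transcription factor, had 124 in bone marrow labelled Ezh2-null, against 982 in bone marrow labelled wild type, 7.94-fold lower, and was not well above background on either fetal liver array. Among the 9 genes, Cish, a known STAT5 target, was 1.55-fold lower in fetal liver labelled Ezh2-null than in fetal liver labelled wild type.

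**Figure D5:**
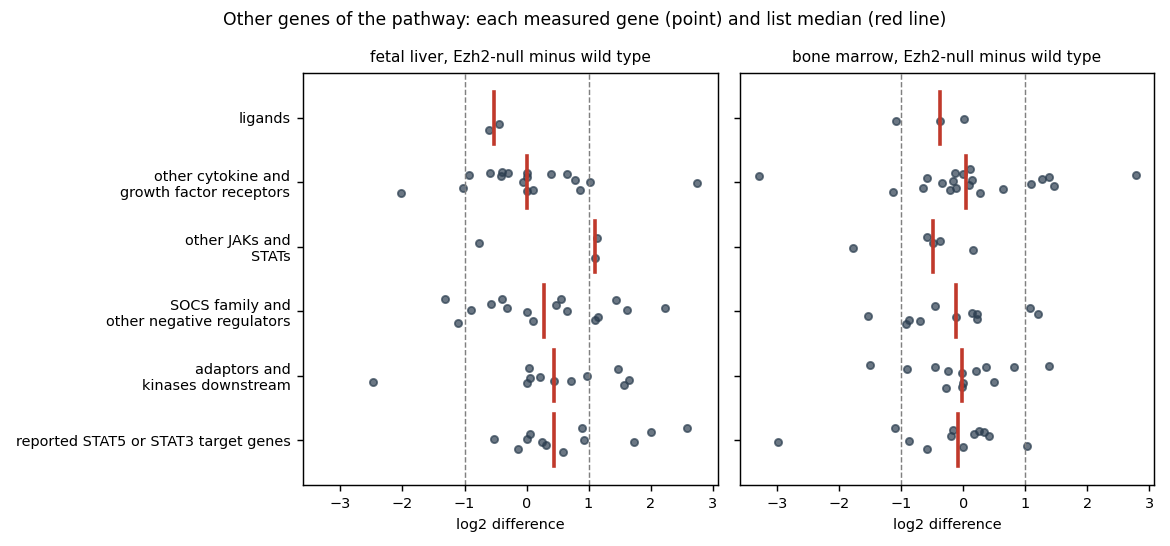
Log2 differences, Ezh2-null minus wild type as labelled, of each measured gene of the 6 pathway lists (points) with the list median (red line) and dashed lines at 2-fold, in fetal liver (left) and bone marrow (right). The reported STAT5 or STAT3 targets have a median of 0.45 in fetal liver and -0.09 in bone marrow, and the other JAKs and STATs rest on 3 and 5 genes.

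The genes whose profile over the 4 arrays was nearest to that of each gene well above background on all of them were sought among 11176 genes, by the distance between log2 levels centred on each gene's own mean. For Kit these were Zdhhc6 (distance 0.088), Tpm3 (0.139) and Utp11 (0.145), and for Epor Ubl7 (0.038), LOC100047275 (0.068) and Snrpc (0.075). For Csf2rb they were Slc36a2 (0.019), Dpysl4 (0.031) and LOC100047586 (0.033). Stat3 was nearest to Gm6710 (0.055), Tpgs2 (0.058) and Gata5 (0.059), Stat5a to Psma6 (0.021), Ogdh (0.084) and the probe name NAP019092-001 (0.107), and Stat5b to an unnamed probe (0.063), Pcbp2 (0.083) and Tmem229b (0.094). With 4 arrays, profiles this close describe these arrays only.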

How the data were processed

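Total RNA (250 ng, with Agilent spike-in RNA) was amplified and labelled with Cy3, per the labels' protocols. Intensity values were deposited as Feature Extraction 10.7.3.1 wrote them under protocol GE1_107_Sep09, background-subtracted and detrended within each array with no step between arrays, per the file headers. The deposited mean and local background intensities were as scanned. The series table of the authors repeats these intensities, rounded, on a linear scale without centring: its medians were 10.8, 7.05, 8.63 and 10.3 (fetal liver labelled Ezh2-null and wild type, then bone marrow labelled Ezh2-null and wild type), within 0.496% of the scanner values. The deposited flags of 0 or 1 mark spots well above background, saturated or outlying. The arrays share a slide and a scan date, per the file headers.

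Control spots and outlier spots (97, 101, 135 and 95 in the same order) were left out, 0 were saturated, and spots of a probe were averaged. Log2 intensities were scaled to an equal 75th percentile, taken over those 12880 probes (32.7%) that passed the background flag on all 4 arrays. The brightest probe stands for a gene. Of the probes, 26048 were named by accession, 3193 by symbol, 929 by an older name and 9248 as in the files. R 4.3.3 with limma 3.58.1 and Python 3.11.15 were used, and the fit was tested on simulated data. The genes and lists were chosen with earlier results of these data known. Genes named outside the 9 are, per list, up to 3 with the largest genotype difference past 2-fold, plus Il3ra, Csf2rb2 and Jak1 as relatives of the 9, and the 3 nearest profiles of each gene. Some genes of the lists are not reported here by name. Other markers were named where a result stands beside them. Alternatives were normexp correction, quantile, all-probe and spike-in scaling, both filters on dim probes, averaged probes, the probe nearest the 3′ end, the series table and, added later, removal of the position trend.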

Additional observations from a re-analysis of the deposited data

Results flagged for a closer look

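Of the 9 genes, 6 had genotype differences of opposite sign in fetal liver and bone marrow, each on 1 array per group, so this difference was not tested. The genotype difference in fetal liver minus that in bone marrow was 2.43 on the log2 scale for Kit, -1.57 for Epor and 2.26 for Jak2. For Stat3 it was 0.70, for Stat5a 0.46 and for Stat5b 1.11 by its brighter probe. The bone marrow differences of these last 3 lay within the error-model SD of 0 (-0.19 ± 0.205, -0.07 ± 0.204 and -0.16 ± 0.204). The Jak2 bone marrow difference is a bound of -0.40, within 2 error-model SDs of 0. It does not enter the 2.26: both bone marrow signals of Jak2 lay under 19.3 and were raised to it. The 2.26 therefore repeats the fetal liver bound.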

How the results depend on the processing

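The number of genes past 2-fold was within 1.5 times the reported count in the fetal liver and bone marrow genotype comparisons under every alternative run. Between the arrays labelled wild type it was 3 with the 75th percentile over all probes and 3 with spike-in scaling, in place of 6, and between the arrays labelled Ezh2-null it was 1 when both arrays had to be well above background, in place of 3, because fewer genes were then compared. Spike-in scaling turned the bone marrow minus fetal liver differences of Epor (0.26), Csf2rb (0.17) and Cish (0.11) between the arrays labelled wild type, and averaging all probes turned that of Stat3 (0.19) between the arrays labelled Ezh2-null; the cause was not tested. Genes whose difference of differences reached 4-fold numbered 0 with normexp and 1 (Kit) with detection required on every array, in place of 2. The additive fit called 1 gene for source with normexp (Stat3, limma adjusted p = 0.0467) and 0 otherwise. With normexp it called 1291 of all genes for source, so Stat3 was 1 among many. Over all genes it called between 0 and 140 for genotype and between 0 and 1398 for source over 9 alternatives. The position trend was removed from the differences only, not in the fit. No paired analysis was possible because each group has 1 array and the labels give no replicate numbers, and leaving out an array leaves no residual degree of freedom. Signals near background limit Jak2, Socs3 and Cish, whose folds are mostly bounds.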
